A study of Mus musculus with 35 samples.

Results

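Histone genes were taken as the protein-coding genes whose symbols name an H1, H2A, H2B, H3, H4 or macroH2A histone, which gave 101 of the 54354 genes in the table. By their names they fell into 10 genes for variants whose messages are polyadenylated, 59 replication-dependent core genes, 5 replication-dependent linker genes and 27 germline-restricted or other genes. The study measured RNA in mouse colon tumour organoids of the AKP genotype grown in vitro, and the series' text asks how their transcription responds to changed fatty acids and ceramides. The labels do not spell out AKP, and they give no dose or exposure time. All 35 libraries came from AKP colon tumour organoids, so the controls carry the same genotype as the treated organoids. There were 15 libraries treated with carmofur, an inhibitor of ceramidase that is also known as a fluoropyrimidine prodrug, and 12 controls for carmofur. There were 3 libraries treated with palmitic acid in a batch 1, 2 treated with palmitic acid in a batch 2, and 3 controls for palmitic acid. The labels assign those 3 controls to neither batch, so batch and palmitic acid cannot be told apart. They also do not say whether libraries of a group were separate cultures, so p-values measure the spread between libraries, which may be technical.

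Core histones form the nucleosome, and linker histone H1 binds the DNA where it enters and leaves the nucleosome. Most histone proteins come from replication-dependent genes, which are transcribed in S phase and clustered in the genome. Their messages end in a short stem-loop bound by the protein SLBP in place of a poly(A) tail. Variants such as H2A.Z (H2az1, H2az2), H3.3 (H3f3a, H3f3b), H1.0 (H1f0) and macroH2A (Macroh2a1) come from separate genes whose messages are polyadenylated like other mRNAs and can be made outside S phase. The libraries were poly(A)-selected, a step known to capture messages without a poly(A) tail poorly. How much replication-dependent message was captured was not measured.

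The stem-loop was searched for in GENCODE M21 transcripts because it decides how a histone message should behave in poly(A)-selected RNA. The 16-base histone stem-loop consensus was found in 45 of the 64 replication-dependent genes, with 21 to 58 bases between the stop codon and the stem-loop (median 32) over the 47 longest transcripts of members that held it. Of 9 distinct cores, the commonest occurred in 26 genes. The sequences below, DNA letters of the GRCm38 transcripts with 6 flanking bases on each side and the stem-loop core in capitals, show 2 genes with that core, a gene with another stem, and the variant gene H2ax, whose message is known to exist in both stem-loop and polyadenylated forms:
H1f2: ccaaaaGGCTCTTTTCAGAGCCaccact
H2aw: accaaaGGCTCTTTTCAGAGCCacccac
H4c9: cttaaaGGCCCTTTTTAGGGCCaccaca
H2ax: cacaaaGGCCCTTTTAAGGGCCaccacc
Each lies in the 3′ untranslated region of a 1-exon gene: H1f2 at chr13:23739506-23739533 on the plus strand, H2aw at chr11:58955166-58955193 on the plus strand, H4c9 at chr13:22040960-22040987 on the minus strand and H2ax at chr9:44335234-44335261 on the plus strand. In all 4 the annotated transcript runs on past the stem-loop, by 840 bases in H1f2, 1643 in H2aw, 330 in H4c9 and 822 in H2ax.

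The 2 linker genes without a match differ in their models. The model of H1f5 ends at the stop codon, so no stem-loop could be found in it, and 11 replication-dependent gene models in all end there. H1f1 has 48 bases after its stop codon and no match.

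Total counts per library were 3127275 to 10609563 with carmofur and 1663750 to 8124707 in its controls. They were 2138905 to 2845017 in palmitic acid batch 1, 2406582 to 3742289 in batch 2 and 762888 to 2511723 in the palmitic acid controls, of which control 1 was the shallowest. Of 178 pairs of libraries within groups 0 had identical counts. In an earlier analysis of these data carmofur control 1 and carmofur 8 and 10 stood apart from their groups in principal components. Levels are given below as CPM, counts scaled to library size with TMM factors. The organoids carried epithelial markers (summed over 9 genes, 5298 ± 719 CPM with carmofur against 4463 ± 457 CPM in its controls, and 3421 ± 113 CPM in palmitic acid batch 1 and 3346 ± 20.5 CPM in batch 2 against 4116 ± 263 CPM in the palmitic acid controls; SD). Mesenchymal markers summed to at most 6.46 CPM in any library, with Col1a1, Col1a2, Lum and Pdgfrb at 0 everywhere. Among immune markers Cd3e, Csf1r and Adgre1 were at 0 everywhere, and Cd68 passed the count filter in the carmofur comparison.

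**Figure D1:**
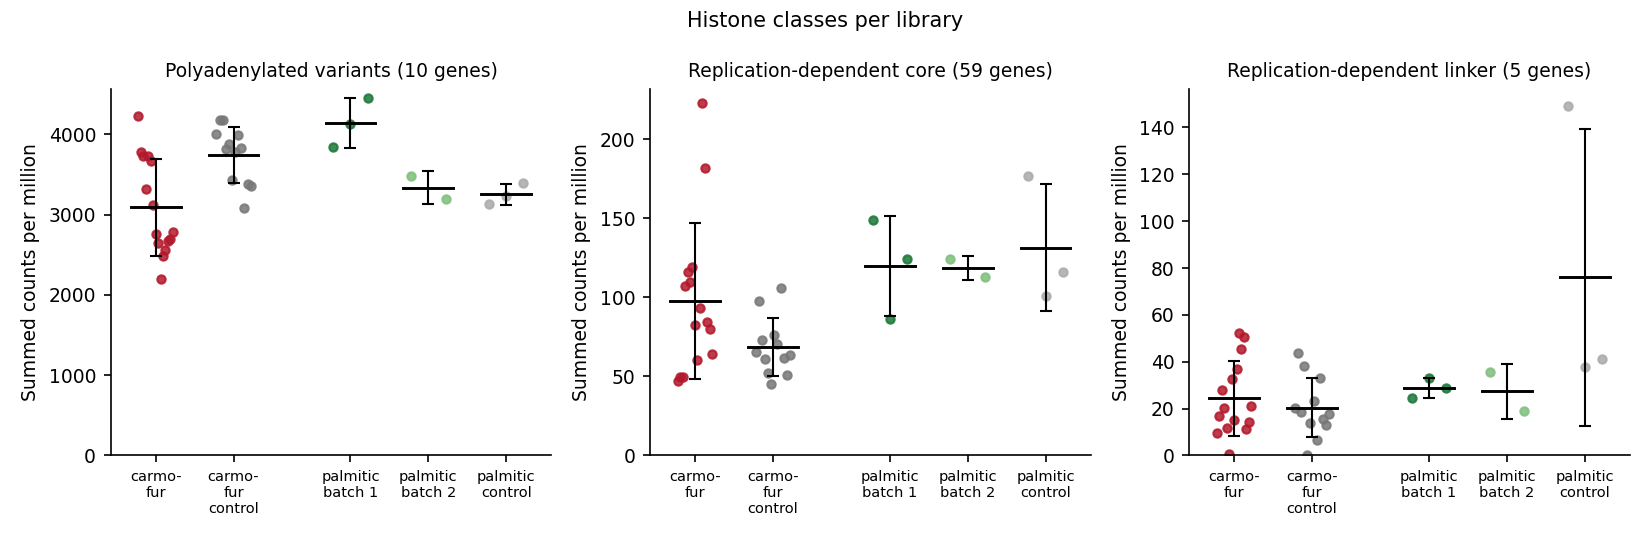
Summed TMM-scaled CPM of the polyadenylated variants, the replication-dependent core genes and the replication-dependent linker genes. Each point is a library, the horizontal line is the group mean and the bar its SD. The variants lie near 2202 to 4452 CPM in every group, far above the other classes, and palmitic acid control 1 is the high point of the linker panel at 149 CPM.

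Nearly all histone message in these libraries came from the variants. The 10 variant genes held 596030 counts, 96.5% of the 617374 counts of all members, while the 59 replication-dependent core genes held 16787 (2.72%), the 5 linker genes 4405 (0.714%) and the 27 germline and other genes 152 (0.0246%). In all, 33 members had no count in any library, 22 of them germline or other genes and 11 replication-dependent core genes, and 75 members had fewer than 100 counts over all 35 libraries. Summed variant level was 3091 ± 607 CPM with carmofur (n = 15) against 3740 ± 351 CPM in its controls (SD, n = 12). It was 4142 ± 306 CPM in palmitic acid batch 1 (n = 3) and 3336 ± 203 CPM in batch 2 (n = 2) against 3253 ± 130 CPM in their controls (n = 3).

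Per kilobase of transcript, H2az1 ranked the highest of all members, at a mean of 1748 CPM per kb in the carmofur controls and 1467 in the palmitic acid controls. H3f3b followed at 447 and 322 CPM per kb and H3f3a at 152 and 182. These values use the longest transcript, 2514 bases for H3f3b and 2841 for H3f3a. Shorter coding transcripts of 1993 and 888 bases are also annotated, so the order of H3f3b and H3f3a depends on the transcript taken. The next variants were H1f0 at 53.3 and 49, H2aj at 39.9 and 65.2, H2az2 at 34.2 and 52.7, and Macroh2a1 at 32.3 and 20.5 CPM per kb in the carmofur and the palmitic acid controls. H2az1 thus stood far above its paralogue H2az2, which encodes a nearly identical H2A.Z protein. H2ax, which encodes the variant phosphorylated at DNA breaks, was at 8.35 and 7.47 CPM per kb. Macroh2a2 was at 0 in every library of the carmofur experiment and had 6 counts in palmitic acid batch 2, 0 in batch 1 and 1 in their controls.

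Among the replication-dependent genes a single core gene held the most counts. H2bc4 (Hist1h2bc, chr13:23684199-23692908, an H2B gene of the main histone cluster) held 10870 counts and had counts in all 35 libraries, at 36.9 CPM per kb in the carmofur controls and 62.6 in the palmitic acid controls. Per kilobase the linker gene H1f5 was above H2bc4 in the palmitic acid controls, at 68 CPM per kb, and below it in the carmofur controls, at 4.15. In palmitic acid control 1 H1f5 was at 101 CPM and H2bc4 at 93.9 CPM. The annotated transcript of H2bc4 has 2 exons and a 742-base 3′ untranslated region in which no stem-loop was found. Of the 4 replication-dependent genes with an untranslated end of at least 300 bases and no stem-loop, H2bc4, H2bc21 and H2bc24 passed 100 counts, and the 4 together held 56.1% of all replication-dependent counts. The 18 genes whose transcript continues for 300 or more bases past the stem-loop had a median of 85 counts and held 33%, among them H1f2 with 3534 counts. The 27 genes that end within 300 bases of the stem-loop had a median of 23 counts and held 7.34%. The 15 genes with neither held 3.58%, of which H1f5 gave 685 of 759 counts. These genes are close copies: 37 of the 64 have under 50% of their 31-base words to themselves among the members' GENCODE transcripts. Their single values thus depend on how reads were shared between copies. The share was 0.163% for H2bc24, 68.7% for H2bc4, 88.6% for H1f2, 96.9% for H1f5, and 100% for H2az1 and H3f3a. Transcripts of other genes and of pseudogenes were not compared, so 100% does not show that reads could come from that gene alone.

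**Figure D2:**
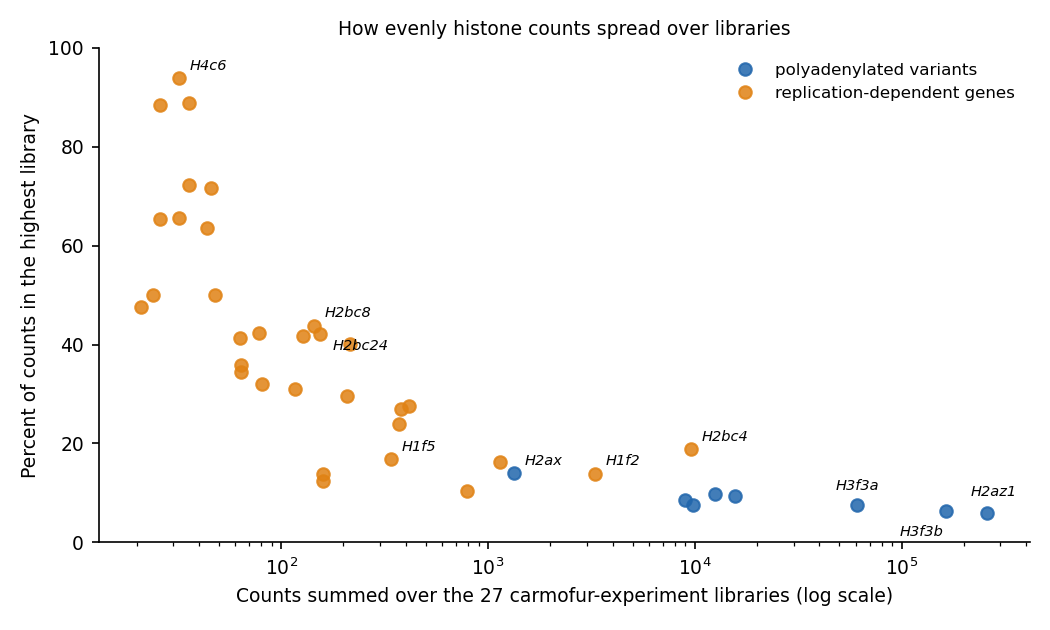
Percent of a gene's counts that came from its highest library (vertical axis) against its counts summed over the 27 carmofur-experiment libraries (horizontal axis, log scale), for members with 20 or more counts. The 8 variants lie between 5.96% and 14%, the 32 replication-dependent genes between 10.3% and 93.8%.

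The replication-dependent counts were spread unevenly over libraries. In the 27 libraries of the carmofur experiment, the highest library held a median of 40.8% of a replication-dependent gene's counts, against 8.11% for the variants. H2bc8, an H2B gene with 144 counts there, had them in 3 libraries, carmofur 4, 5 and 6, and was at 0 in the rest. H2bc24 had 152 counts with carmofur against 2 in its controls, and 42.2% of all came from carmofur 13. Of the transcript of H2bc24, 0.163% of the 31-base words are unique among the members, so its counts rest on how reads were assigned between copies. For H2bc8 43.7% are unique among the members. Neither passed the count filter of the carmofur comparison. Over all 35 libraries both entered the difference between carmofur and palmitic acid batch 1, with adjusted p of 0.676 for H2bc8 and 0.793 for H2bc24 (edgeR).

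**Figure D3:**
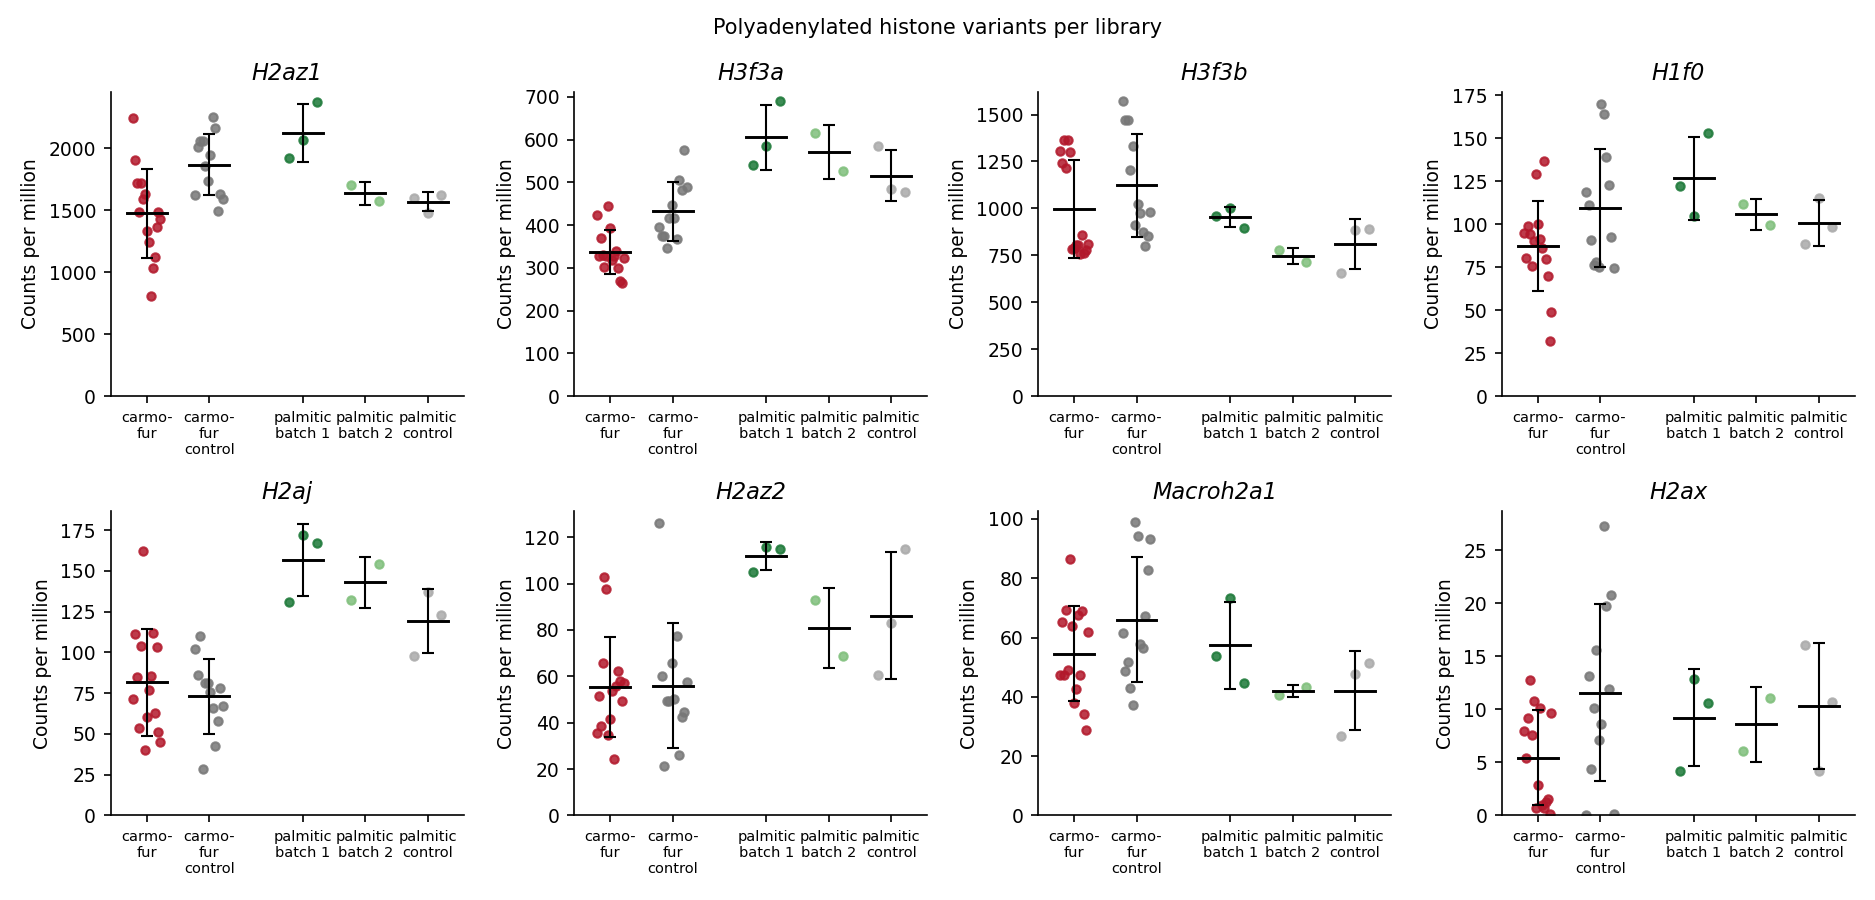
TMM-scaled CPM of the 8 polyadenylated variants that passed the count filter. Each point is a library, the horizontal line is the group mean and the bar its SD. Carmofur libraries sit lower than their controls for H2az1 and H3f3a with overlap, and H3f3b falls into a high and a low cluster in the carmofur experiment.

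In carmofur-treated organoids the H2A.Z gene H2az1 and the H3.3 gene H3f3a were lower than in their controls, and no histone gene was higher. Of the 101 members 12 passed the count filter, and 2 of these 12 passed an adjusted p of 0.05, both lower. Of all 9992 genes tested 9.02% passed, with 3.8% of the genes tested lower and 5.21% higher. Of the 8 variants tested, 7 had a log2 fold change below 0, with a median of -0.30 against 0.00 over all genes. The 4 replication-dependent genes tested lay above 0 and none passed.

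H2az1 was at 805, 1482 and 2245 CPM (lowest, median and highest) with carmofur against 1491, 1902 and 2248 CPM in the controls. The groups overlapped, with 13 of 15 carmofur libraries below the control median. The log2 fold change came to -0.35 ± 0.099 (SE; edgeR, adjusted p = 0.0156), a level 0.784 times that of the controls. H3f3a was at 265, 327 and 444 CPM with carmofur against 346, 417 and 576 CPM in the controls. Again 13 of 15 carmofur libraries were below the control median and the groups overlapped. The log2 fold change came to -0.36 ± 0.089 (SE; edgeR, adjusted p = 0.00423), or 0.777 times the control level. Both kept their calls when any 1 of the 27 libraries was left out (adjusted p 0.00197 to 0.0317 for H2az1 and 0.00131 to 0.00984 for H3f3a). Without carmofur control 1 and carmofur 8 and 10 together, both calls also stood, at -0.31 for H2az1 (adjusted p = 0.0252) and -0.40 for H3f3a (adjusted p = 0.00387, edgeR).

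The estimates of both differences varied along the sequence of library numbers, though that variation itself was not tested. The labels number the carmofur libraries and their controls, and the numbers were divided into 3 blocks of 12, which hold 6 carmofur and 3 control libraries in blocks 1 and 2 and 3 and 6 in block 3. The labels do not call these blocks batches. Within block 1 H3f3a averaged 346 ± 43.6 CPM with carmofur against 382 ± 11.3 CPM in controls (log2 fold change -0.18, adjusted p = 0.607). Within block 2 it averaged 354 ± 54.5 against 403 ± 51.3 CPM (-0.19, adjusted p = 0.684), and within block 3 286 ± 32.7 against 473 ± 72.7 CPM (-0.73, adjusted p = 0.00635, edgeR). H3f3a was thus lower with carmofur in each block and passed the threshold in block 3 alone.
H2az1 averaged 1776 ± 270 CPM with carmofur against 1897 ± 239 CPM in controls within block 1 (log2 fold change -0.14, adjusted p = 0.721). Within block 2 the values were 1194 ± 280 against 1887 ± 163 CPM (-0.67, adjusted p = 0.0155), and within block 3 1427 ± 60.9 against 1845 ± 318 CPM (-0.38, adjusted p = 0.131, edgeR). Its lowest carmofur levels, 805, 1030 and 1124 CPM, were those of carmofur 10, 11 and 12, and without those 3 libraries the difference was -0.24 (adjusted p = 0.0726). These 3 libraries also held the highest sums of ribosomal RNA genes in the carmofur experiment, at 1527, 1030 and 968 CPM, against a median of 290 CPM over all carmofur libraries and 201 CPM over controls. Their immune marker sums were the highest as well, at 156, 122 and 94.6 CPM, against medians of 34.9 CPM with carmofur and 47.4 CPM in controls. Nearly all of that sum was Cd68, a macrophage marker. The part of either in the H2az1 difference was not tested. It also missed the threshold without controls 7, 8 and 9 together (-0.30, adjusted p = 0.0904). With libraries of consecutive numbers summed in sets of 3, neither gene passed (adjusted p = 0.34 for H2az1 and 0.169 for H3f3a, edgeR).

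**Figure D4:**
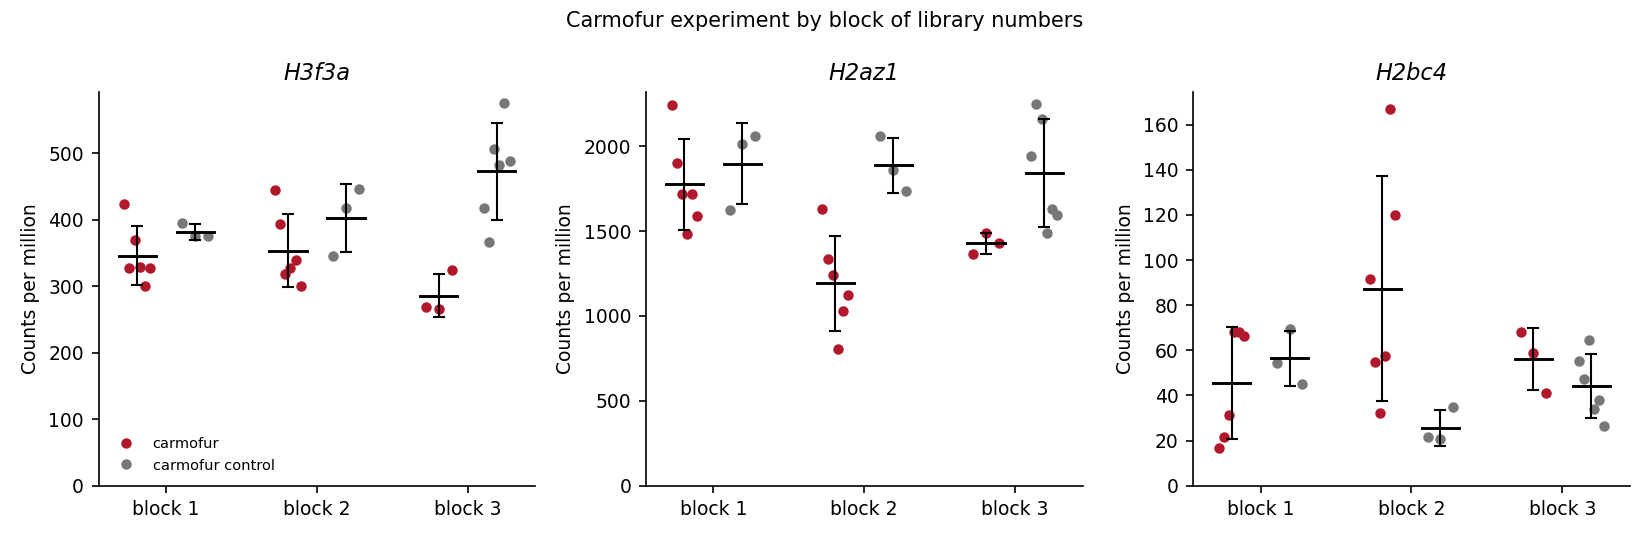
TMM-scaled CPM of H3f3a, H2az1 and H2bc4 in the carmofur experiment, split by block of library numbers, with carmofur left of its control in each block. Each point is a library, the line is the mean and the bar the SD. H3f3a differs most in block 3, H2az1 and H2bc4 in block 2.

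The other H3.3 gene, H3f3b, encodes the same protein as H3f3a and differed in level along the library numbers, with a step inside block 2. It was at 996 ± 259 CPM with carmofur against 1123 ± 274 CPM in controls, a log2 fold change of -0.18 ± 0.12 (SE) that did not pass (adjusted p = 0.467, edgeR). Within block 1 it was at 1299 ± 61.9 against 1504 ± 60.4 CPM, within block 2 at 799 ± 34.6 against 1150 ± 216 CPM, and within block 3 at 785 ± 24.2 against 919 ± 87.6 CPM, with carmofur given before its controls in each. The block 2 controls were split, at 1204 and 1334 CPM in controls 4 and 5 and 912 CPM in control 6, against 756 to 859 CPM with carmofur there. The mean was lower with carmofur in all 3 blocks, and block 2 alone passed (-0.53, adjusted p = 0.0196, edgeR). With the block as a covariate the difference was -0.33 ± 0.0619 (adjusted p = 0.000165, edgeR), and H3f3b then passed beside H3f3a and H2az1. The step lies inside block 2, where the carmofur libraries come after it, so the covariate does not remove it. In both calls the step and carmofur cannot be told apart. With counts summed over sets of 3 libraries H3f3b did not pass (-0.16, adjusted p = 0.82, edgeR).

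None of the other variants passed. H1f0 was at 87.3 ± 26.4 CPM with carmofur against 109 ± 34.3 CPM in controls (log2 fold change -0.33, adjusted p = 0.301). Within block 3 alone H1f0 passed, at 50.2 ± 19 against 127 ± 38.3 CPM (-1.35, adjusted p = 0.0185, edgeR), whereas in block 2 the difference was 0.44. H2ax was at 5.46 ± 4.47 CPM with carmofur against 11.6 ± 8.34 CPM in controls, with 14 of 15 carmofur libraries below the control median (log2 fold change -1.10 ± 0.613, adjusted p = 0.352). Macroh2a1 was at 54.6 ± 15.9 against 66.1 ± 21.2 CPM (-0.28, adjusted p = 0.444). H2aj, a replication-independent H2A gene, was at 81.6 ± 32.6 against 73.1 ± 23 CPM (0.16, adjusted p = 0.774), and H2az2 at 55.3 ± 21.6 against 55.9 ± 27 CPM (-0.01, adjusted p = 0.986, edgeR).

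Of the replication-dependent genes tested, H2bc4 came closest to the threshold. It was at 16.7, 58.7 and 167 CPM (lowest, median and highest) with carmofur against 20.8, 41.5 and 69.6 CPM in controls. The 2 highest libraries, carmofur 11 and 12 at 167 and 120 CPM, belonged to block 2, and are among the 3 libraries with the high ribosomal RNA and immune marker sums given above (1030 and 968 CPM, and 122 and 94.6 CPM). Without carmofur 10, 11 and 12 the difference was 0.27 (adjusted p = 0.673, edgeR), and the part of those RNAs in it was not tested. Over all libraries the difference was 0.60 ± 0.266 on the log2 scale (SE, adjusted p = 0.184), and 0.80 without carmofur 1, 2 and 3, which then passed (adjusted p = 0.023, edgeR). Within block 2 it was 1.78 (adjusted p = 0.0365, edgeR), within block 3 0.34 and within block 1 -0.36. H2aw, an H2A gene outside the main cluster, was at 8.76 ± 6.35 CPM with carmofur against 4.17 ± 4.01 CPM in controls (1.05 ± 0.65, adjusted p = 0.418). H2bc21 was at 5.37 ± 4.72 against 3.89 ± 4.1 CPM (0.44, adjusted p = 0.864).

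Linker genes of the replication-dependent class other than H1f2 had few or no counts in many libraries of the carmofur experiment. H1f2 was at 22.6 ± 15.9 CPM with carmofur against 16.3 ± 9.98 CPM in controls (log2 fold change 0.47 ± 0.47, adjusted p = 0.686, edgeR), ranging from 0.212 to 52.4 CPM with carmofur and from 0 to 32.3 CPM in controls. H1f1 was at 0 in all 27 libraries. H1f3 had counts in 6 of 15 carmofur libraries and 2 of 12 controls, H1f4 in 5 of 15 and 6 of 12, and H1f5 in 6 of 15 carmofur libraries and 9 of 12 controls at no more than 9.4 CPM. These 4 did not pass the count filter.
The summed replication-dependent level, core and linker, was 122 ± 59 CPM with carmofur against 88.9 ± 28.1 CPM in controls. The carmofur libraries of block 2 averaged 166 ± 70.7 CPM, against 70.1 ± 25.2 CPM in the controls of that block. Small nucleolar, small nuclear and Cajal body RNAs, most of which have no poly(A) tail, summed to 13.3 ± 4.31 CPM with carmofur against 16.5 ± 5.56 CPM in controls. Ribosomal RNA genes summed to 458 ± 404 CPM with carmofur against 251 ± 155 CPM in controls. Their part in the histone values was not tested.

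Genes that act with histones were counted beside the members. The histone chaperones, which carry and deposit histones, had 1 call among 27 tested genes, a smaller share than the 9.02% of all genes that passed. The call was Anp32e, which encodes a chaperone that removes H2A.Z from nucleosomes. Anp32e was at 222 ± 44.1 CPM with carmofur against 316 ± 35.4 CPM in controls, a log2 fold change of -0.52 ± 0.10 (SE, adjusted p = 0.00021, edgeR). The call stood whichever single library was left out (adjusted p 9.29e-05 to 0.000578). The median over the chaperones was -0.02. The genes of histone transcription and 3′ end processing had no call among 18 tested, against 9.02% of all genes, with 3 at an unadjusted p under 0.05 and a median of 0.00. Slbp, the stem-loop binding protein, was at 54.8 ± 14.1 against 40.3 ± 14.7 CPM (0.44, adjusted p = 0.182).

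Cell cycle genes were counted because replication-dependent histones are made in S phase. Of 55 S phase genes tested 5 were higher with carmofur and 1 was lower, a share near the 9.02% of all genes that passed (5.21% higher, 3.8% lower), with a median log2 fold change of 0.33 against 0.00 over all genes. The higher genes were the cyclin gene Ccne2 (0.80), the ribonucleotide reductase subunit Rrm2 (0.98), the replication licensing genes Mcm3 (0.75 over all libraries, -0.06 within block 2) and Cdc6 (0.86), and the kinase gene Cdk2 (1.03, adjusted p = 0.0358, edgeR). The lower gene was Rpa3, a subunit of the single-strand DNA binding complex (-0.46). The call of Cdk2 was lost in 10 of the 27 fits that left out a library. Pcna, the replication clamp, was at 570 ± 77.1 against 589 ± 63.9 CPM (-0.05, adjusted p = 0.804). Of 43 G2/M genes 16 were higher and none was lower, where 5.21% of all genes were higher, with a median of 0.33. Among them were the mitotic kinesin gene Kif20a (250 ± 83.1 CPM with carmofur against 101 ± 17.4 CPM in controls), the spindle gene Nusap1 (log2 fold change 0.81), the cyclin gene Ccnb1 (0.73) and the midzone gene Prc1 (0.59). The proliferation marker Mki67 was at 154 ± 37.2 against 146 ± 26.1 CPM (0.08, adjusted p = 0.835, edgeR).

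**Figure D5:**
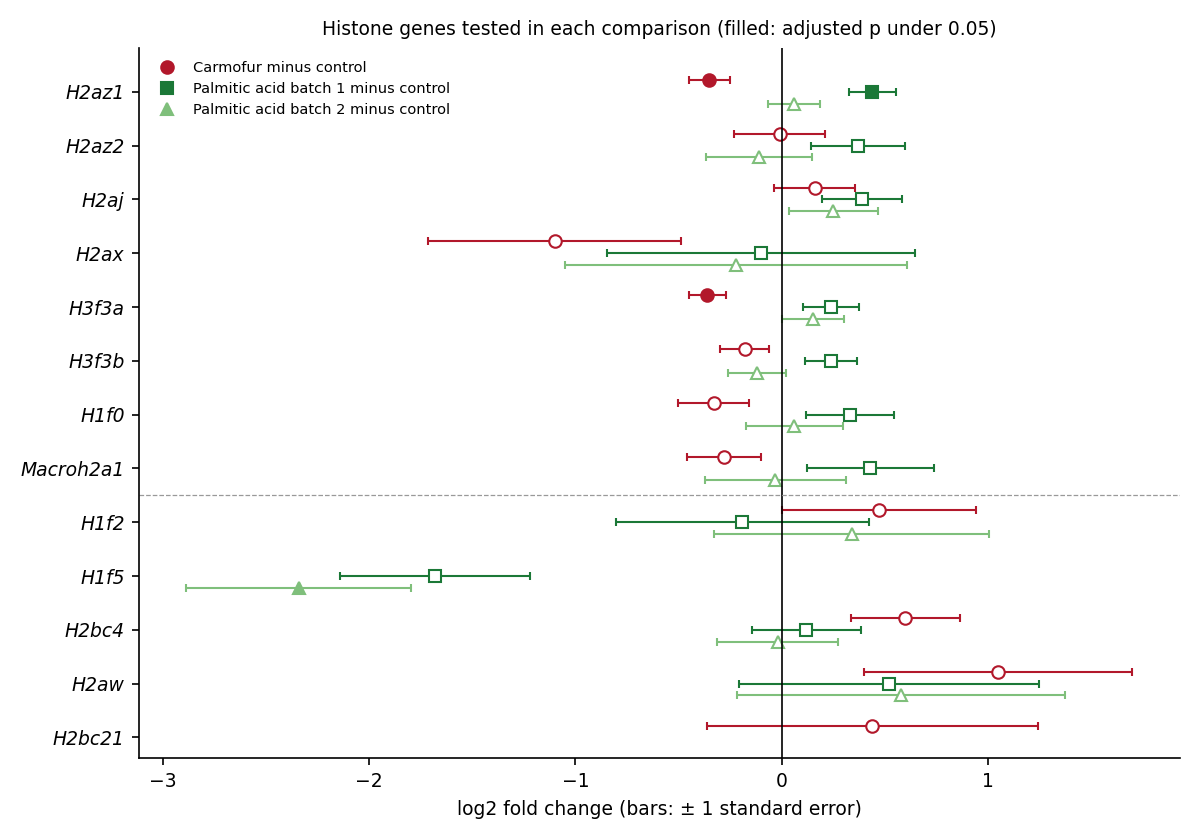
Log2 fold change of 13 histone genes in the 3 comparisons of treated against control libraries, with bars of 1 standard error. Filled symbols passed an adjusted p of 0.05, variants stand above the dashed line and replication-dependent genes below it. H2az1 lies below 0 with carmofur and above 0 in palmitic acid batch 1, and H1f5 lies far below 0 in both palmitic acid batches.

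In palmitic acid batch 1 most variants had values above their controls, and H2az1 was the member that passed. Of 17 members tested 1 was higher and none was lower, where 0.559% of all 9845 genes passed, 0.315% as higher and 0.244% as lower genes. H2az1 was at 1921, 2068 and 2375 CPM in batch 1 against 1600, 1481 and 1625 CPM in controls 1, 2 and 3. All 3 treated libraries were above all 3 controls. The difference on the log2 scale was 0.44 ± 0.115 (SE; edgeR, adjusted p = 0.0416), or 1.36 times the control level. The call was narrow: leaving out a single library ended it in 7 of 8 cases, with adjusted p between 0.00598 without control 1 and 0.532 without batch 1 library 3. Of the 8 variants 7 lay above 0, with a median of 0.35 against 0.01 over all genes. H2aj (0.39, adjusted p = 0.639), Macroh2a1 (0.43, 0.82), H2az2 (0.37, 0.756), H1f0 (0.33, 0.768), H3f3a (0.24, 0.699) and H3f3b (0.24, 0.662) did not pass. H2ax was at -0.10.

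In palmitic acid batch 2 the linker gene H1f5 was the member that passed. Of 17 members tested 1 was lower and none was higher, where 0.325% of all genes passed, 0.142% as lower and 0.183% as higher genes. H1f5 encodes a replication-dependent H1 and lies at chr13:21779883-21780625. It was at 11.9 and 7.09 CPM in batch 2 (41 and 16 counts), and at 12.9, 14.4 and 18.1 CPM in batch 1 (28, 38 and 36 counts), against 101, 22.4 and 28.7 CPM in controls 1, 2 and 3 (75, 53 and 59 counts). All 5 treated libraries were below all 3 controls, and control 1 stood far above the other two. The difference on the log2 scale was -2.34 ± 0.545 in batch 2 (SE; edgeR, adjusted p = 0.0236) and -1.68 ± 0.46 in batch 1 (adjusted p = 0.0723). Without control 1 it was -1.39 in batch 2 (adjusted p = 0.559) and -0.73 in batch 1 (adjusted p = 1, edgeR). In batch 1 it passed in 4 of the 8 fits that left out a library, those without control 2, control 3 or either batch 2 library. Control 1 is also the shallowest library, and classes of RNA that mostly lack a poly(A) tail were high in it. Small nucleolar, small nuclear and Cajal body RNAs summed to 33 to 51.8 CPM over the 5 treated libraries, against 138, 58.3 and 53.9 CPM in controls 1, 2 and 3. Ribosomal RNA genes summed to 990 to 1151 CPM in batch 1 and 1305 and 2390 CPM in batch 2, against 3162, 1862 and 759 CPM in controls 1, 2 and 3. Their part in the H1f5 difference was not tested. The call in batch 2 was kept in 2 of the 8 fits that left out a library, those without control 2 or control 3. Leaving out any of the 5 treated libraries ended it, with adjusted p from 0.0526 to 0.374. Those of batch 1 enter the batch 2 comparison only through the shared filter, scaling, spread and adjustment.

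H1f1, the other linker gene without a stem-loop match, was also highest in control 1. It had 0, 1.51 and 1.89 CPM as lowest, median and highest in batch 1 and 0 and 0.87 CPM in batch 2, against 0.486, 1.69 and 22.8 CPM in the controls. It did not pass the count filter. H1f2, which has a stem-loop and a long extension after it, was at 11.2 ± 4.16 CPM in batch 1 and 16.3 ± 8.58 CPM in batch 2 against 13.1 ± 2.95 CPM in controls (log2 fold changes -0.19 and 0.34, adjusted p = 0.987 and 0.997, edgeR). H1f3 and H1f4 stayed at or under 6.71 CPM in every palmitic acid and control library.

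The remaining members showed no call with palmitic acid. H2bc4 was at 76.9 ± 27.3 CPM in batch 1 and 70.2 ± 12.7 CPM in batch 2 against 72.3 ± 18.8 CPM in controls (0.12 and -0.02). H2az1 was at 1701 and 1572 CPM in batch 2, within the range of the controls for the second library and above it for the first (0.06 ± 0.128, adjusted p = 0.997, edgeR). H3f3a averaged 571 ± 63.4 CPM in batch 2 against 516 ± 60.2 CPM in controls (0.15, adjusted p = 0.979). Of the 8 variants 4 lay above 0 and 4 below in batch 2, with a median of 0.01 against -0.01 over all genes. The chaperone, processing, S phase and G2/M lists had no call in either batch, among 27, 18, 54 and 43 tested genes. Of all genes 0.559% passed in batch 1 and 0.325% in batch 2, so no call in lists of this size lies near that share. Anp32e had log2 fold changes of -0.45 in batch 1 and -0.49 in batch 2, at 225 ± 22.5 and 220 ± 3.95 CPM against 309 ± 26.8 CPM in the controls that both share, with adjusted p of 0.316 and 0.394 (edgeR). The G2/M median was -0.04 in batch 1 and -0.36 in batch 2, with 40 of 43 genes below 0 in batch 2. In the direct comparison of batch 2 with batch 1 none of 17 members passed, where 0.102% of all genes did (0.0609% higher, 0.0406% lower), and 2 members had an unadjusted p under 0.05. H2az1 was the nearest to it (-0.38 ± 0.129, adjusted p = 0.958, edgeR). All 8 variants lay below 0 between the batches, with a median of -0.32 against -0.01 over all genes.

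Whether carmofur and palmitic acid batch 1 acted differently on histone genes was tested as a difference of the 2 effects over all 35 libraries. None of 34 members passed, where 0.69% of 14052 genes did (0.548% above 0, 0.142% below), and 4 members had an unadjusted p under 0.05. The difference was -0.78 ± 0.224 for H2az1 (SE, adjusted p = 0.101) and -0.59 ± 0.202 for H3f3a (adjusted p = 0.281, edgeR). All 8 variants lay below 0, with a median of -0.62 against 0.02 over all genes. With DESeq2 1 member passed, H2az1 (adjusted p = 0.0202), and with limma-voom and quality weights 3 did, H2az1 (adjusted p = 0.026), H3f3a (adjusted p = 0.012) and the core gene H2bc22. Over all genes 206 passed with DESeq2, which gave an adjusted p to 3698 of the 14052. With limma-voom 254 of 14052 genes passed. H2bc22 had 33 and 13 counts in carmofur 9 and 11 and 0 in all other libraries of that experiment. It had 3, 0 and 0 counts in palmitic acid batch 1 against 7, 12 and 12 in controls. It did not pass the count filter of the carmofur comparison, so its call rests on few counts in few libraries. The treatments come from separate experiments with their own controls, so treatment and experiment cannot be told apart here.

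The promoter windows of the 3 members that passed in any comparison are given as RefSeq has them, from 250 bases before to 50 after the annotated start on GRCm38.p6, because histone genes are known for short shared promoter elements. Capitals mark matches on either strand to the CCAAT box, to the TATA element in the form TATAAA, and to AAACACA, a short element known from H1 promoters. The matches do not overlap in these windows:
H2az1: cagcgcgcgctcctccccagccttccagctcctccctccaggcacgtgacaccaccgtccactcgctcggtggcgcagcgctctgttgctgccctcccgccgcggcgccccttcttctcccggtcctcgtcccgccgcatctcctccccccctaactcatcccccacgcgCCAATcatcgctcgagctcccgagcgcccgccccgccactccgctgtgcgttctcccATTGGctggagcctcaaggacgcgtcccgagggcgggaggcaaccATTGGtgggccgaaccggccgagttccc
H3f3a: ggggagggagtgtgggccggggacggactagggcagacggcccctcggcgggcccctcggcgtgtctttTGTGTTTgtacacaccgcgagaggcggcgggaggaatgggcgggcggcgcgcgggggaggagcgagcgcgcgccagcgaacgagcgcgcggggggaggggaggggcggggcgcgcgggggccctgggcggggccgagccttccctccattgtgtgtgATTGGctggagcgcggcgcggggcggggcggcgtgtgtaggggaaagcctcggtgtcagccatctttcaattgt
H1f5: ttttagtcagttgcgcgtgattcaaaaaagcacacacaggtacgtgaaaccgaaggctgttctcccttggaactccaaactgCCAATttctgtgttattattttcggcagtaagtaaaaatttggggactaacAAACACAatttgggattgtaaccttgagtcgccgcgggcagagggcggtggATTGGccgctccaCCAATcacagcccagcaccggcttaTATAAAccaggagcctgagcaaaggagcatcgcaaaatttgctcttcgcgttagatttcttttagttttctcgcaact
H2az1 lies at chr3:137864237-137864536 on the plus strand, H3f3a at chr1:180813556-180813855 on the minus strand and H1f5 at chr13:21780576-21780875 on the minus strand. H2az1 has 3 CCAAT matches and no TATAAA, H3f3a has 1 CCAAT and 1 AAACACA match, and H1f5 has 3 CCAAT, 1 TATAAA and 1 AAACACA match. Of the 101 members 93 had a window, without H2bc4.

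The classes differed in these letters. Members are counted as genes, with a match if any of their windows held it, while the figures for all genes count single windows. CCAAT was found for 44 of 53 replication-dependent core genes (83%), all 5 linker genes and 6 of 9 variant genes (66.7%), against 37.4% of 32851 windows of all genes. TATAAA was found for 29 of 53 core genes (54.7%), 4 of 5 linker genes (80%) and 1 of 9 variant genes (11.1%), against 13.6% of all windows. AAACACA was found for 4 of 5 linker genes (80%), 2 of 53 core genes (3.77%) and 1 of 9 variant genes (11.1%), against 7.18% of all windows. These matches describe the windows and were not tested against expression.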

How the data were processed

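Organoid RNA was extracted with TRIzol and a PureLink kit, and directional NEBNext Ultra II libraries were made after poly(A) selection, per the labels' protocols. Salmon 1.3.0 and mm10 are named in the submitters' processing notes. The values used are the estimated counts per gene deposited by the authors, which are whole numbers in the table. Genes without a symbol (1243, holding 0.0216% of counts) could not be members. Counts were tested with edgeR 4.0.16 in R 4.3.3 (quasi-likelihood test, TMM scaling, filterByExpr, robust fit). The carmofur and palmitic acid experiments were fitted apart and jointly for the difference of effects, with Benjamini-Hochberg adjustment over all genes tested and a threshold of 0.05. Fits were tested on simulated data. DESeq2 1.42.0 and limma 3.58.1 served as alternatives. CPM are TMM-scaled over all 35 libraries, and per-kilobase values divide them by the longest transcript. Gene models came from GENCODE M21 (GRCm38), which matched all 101 members, and promoters from RefSeq. With counts this low for most members, 3 counts were taken as the floor of detection, and depth limits what was tested.

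Members, lists and tests were chosen with earlier results of these data known. Genes named are the members past the threshold in any comparison, the variants, the 10 replication-dependent genes of highest mean CPM, the linker genes H1f1 to H1f5, and the lowest p-values of the lists with Slbp, Mki67 and Pcna. H2bc8, H2bc24, H2bc22 and the members called only with no filter were chosen after their values were seen. Same-numbered libraries did not deviate together (correlations -0.0194 to 0.0383 over 12 carmofur pairs), so replicate numbers were not taken as pairs. Alternatives were other scalings, filters and tools, the replicate number as a block, blocks of library numbers, and libraries left out. Leaving out single libraries of the carmofur experiment was added after seeing the data.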

Additional observations from a re-analysis of the deposited data

How the results depend on the processing

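The 2 carmofur calls, H2az1 and H3f3a, kept their direction under every alternative run. H2az1 passed in 10 and H3f3a in 9 of the 13 settings other than leaving out single libraries or sets of 3. Those 13 include the fits within each block and the fit without the 3 libraries that stood apart, which used fewer libraries. Of the 1819 alternatives over 60 results for single genes, 1673 kept direction and call, 60 lost the call, 14 gained it and 72 changed sign. The cause of each change below was not tested, except that fits within blocks, or with libraries summed, used fewer libraries. Calls over all genes with carmofur, 901 as reported, numbered 3541 with no filter, 234, 512 and 588 within blocks 1, 2 and 3, and 334 with library sets summed. Member calls, 2 as reported, numbered 13 with no filter, 1 with the replicate block, 0 within block 1, 0 with sets summed, and 1 to 3 when libraries were left out. The 13 were of 61 members tested, where 3541 of 24076 genes passed. Those added were H2ac19, H2bc3, H2bc8, H2bc13, H2bc22, H2bc24, H3c1, H4c6 and H4c11 as higher and H1f9 and H2ac11 as lower, and each except H2bc24 was at 0 in every library of either the carmofur or the control group.

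Same-numbered libraries were not paired by the labels or by the data. In the carmofur experiment 2 of 12 numbers matched best with their own. With the replicate block 799 genes passed with carmofur, 42 in palmitic acid batch 1, 28 in batch 2, 8 between batches and 56 for the difference of effects (97 as reported). H3f3a then stood at -0.31 (adjusted p = 0.0548, edgeR), and the members passing in batch 1 and in batch 2 numbered 0 and 0.

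Signs that changed with carmofur within block 1 were those of H1f2 (-0.79), H2aj (-0.07), H2ax (0.55), H2bc4 (-0.36), Macroh2a1 (0.13) and Pcna (0.06). Within block 2 they were H1f0 (0.44), H2bc21 (-0.79), Mcm3 (-0.06) and Mki67 (-0.04), and within block 3 H1f2 (-0.21), H2aw (-0.02), H2az2 (0.13) and Pcna (0.01). Pcna was at 0.0031 with the block as covariate. H2az2 was at 0.01 with library-size scaling and with no filter, 0.20 with limma-voom, 0.02 with the replicate block, 0.10 with sets summed and 0.24 without the 3 libraries that stood apart. Leaving out a library or a set gave -0.24 to 0.14 for H2az2, -0.00016 to 0.67 for H1f2 and -0.02 to 0.15 for Mki67.

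In palmitic acid batch 1 H2az1 passed in 4 of the 8 settings that left out no library. No member passed with library-size scaling, with a mean count of at least 10 or with the replicate block. Both batches as 1 group gave 0.03 for H1f2, and limma-voom gave 0.08 for H2ac8 and 0.25 for H2ax. Leaving out libraries gave 21 to 72 genes, 0 to 1 members, -0.52 to 0.33 for H2ax and -0.20 to 0.34 for H2bc4. In batch 2, 55 genes passed with DESeq2 and 70 with both batches as 1 group, against 32 as reported. With limma-voom 0 members passed, and H2ax was at 0.04 and H2bc4 at 0.10. H2az2 was at 0.04 with the replicate block and 0.17 with both batches as 1 group, H2bc4 at 0.03 with no filter and 0.04 with both batches, H3f3b at 0.09 with both batches, and Macroh2a1 at 0.01 with no filter, 0.01 with the replicate block and 0.24 with both batches. Leaving out libraries gave 0 to 1 members, -0.02 to 0.16 for H1f0, -0.34 to 0.79 for H1f2, -0.70 to 0.22 for H2ax, -0.34 to 0.15 for H2az2, -0.21 to 0.21 for H2bc4 and -0.22 to 0.12 for Macroh2a1.

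Between batches 19 genes passed with no filter, against 10 as reported, and leaving out libraries gave 2 to 14 genes and -0.21 to 0.02 for H3f3a. For the difference of effects 206 genes and 1 member passed with DESeq2, and 254 genes and 3 members with limma-voom. H1f5 was then at -0.89 with limma-voom and -1.29 with the replicate block. Leaving out libraries gave 22 to 129 genes, 0 to 1 members and -0.65 to 0.70 for H1f5. Scaled by library size alone, the summed variants averaged 3100 CPM in palmitic acid batch 2 against 3076 CPM in its controls, and the replication-dependent core genes 110 CPM in batch 2. Depth limits what could be tested: 44 of 59 replication-dependent core genes, 3 of 5 linker genes, 26 of 27 germline and other genes and 2 of 10 variants had under 100 counts over all libraries.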
